A study of Saccharomyces cerevisiae with 2 samples.

Results

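The hexose transporter genes HXT1 to HXT7 encode the main glucose carriers of the plasma membrane of budding yeast. They were chosen by name, and all 7 were found among the 6002 nuclear protein-coding open reading frames (ORFs) of the R64 assembly in its RefSeq annotation. The data come from a Saccharomyces cerevisiae strain in which the kanMX4 cassette replaces SET2, the gene of the histone H3 lysine 36 methyltransferase, in the haploid laboratory background BY4741. The cultures grew in YPAD, a rich medium with 1% glucose, and were taken in mid-log phase at an optical density of 1. Transcript isoform sequencing (TIF-Seq) records, for single RNA molecules, where the cap and where the poly(A) tail lie. The 2 biological replicate libraries of this single group share 1 deposited count for each pair of start and end positions. There was no wild-type strain, no second sugar and no value per replicate here, so no value below can be read as an effect of losing SET2 and no difference carries a p-value.

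Yeast takes up glucose by facilitated diffusion, through carriers that differ in how tightly they bind the sugar. Low-affinity carriers (HXT1 and HXT3) serve cells in plentiful glucose, high-affinity carriers (HXT2, HXT6 and HXT7) serve cells in scarce glucose, and HXT4 and HXT5 lie between, HXT5 being known for slow growth and starvation. At several of these genes, transcription is known to be held down by the repressor Rgt1, which the membrane sensors Snf3 and Rgt2 relieve when glucose is present. High-affinity genes are also known to be held down by the glucose repressor Mig1. Promoters that are switched over a wide range in this way often carry a TATA box, the site where the TATA-binding protein docks.

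The start sites of 5 of the genes could be set beside such elements. The sequence searched was the 120 nt before the most used start among molecules that covered the whole ORF, for genes with at least 15 such molecules. It was read 5′ to 3′ on the gene's strand from the R64 RefSeq genome, and capitals mark TATAAA or TATATA, overlapping matches included. HXT1 lies on chrVIII:292667-292786, HXT3 on chrIV:1164693-1164812, HXT4 on chrVIII:288887-289006, HXT2 on chrXIII:287921-288040 and HXT7 on chrIV:1156020-1156139, all on the minus strand except HXT2.
HXT1: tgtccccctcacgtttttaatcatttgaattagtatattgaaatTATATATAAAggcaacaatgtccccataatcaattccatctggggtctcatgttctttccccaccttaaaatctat
HXT3: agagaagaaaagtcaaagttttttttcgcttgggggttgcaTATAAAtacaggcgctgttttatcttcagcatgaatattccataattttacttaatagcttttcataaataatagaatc
HXT4: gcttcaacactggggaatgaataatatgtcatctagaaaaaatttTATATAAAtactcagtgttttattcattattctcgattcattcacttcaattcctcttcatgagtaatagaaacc
HXT2: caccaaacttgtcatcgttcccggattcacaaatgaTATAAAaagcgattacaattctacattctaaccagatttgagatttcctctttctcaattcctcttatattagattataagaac
HXT7: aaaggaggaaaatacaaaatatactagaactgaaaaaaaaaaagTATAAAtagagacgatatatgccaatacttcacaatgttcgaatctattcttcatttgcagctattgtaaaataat

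All 5 windows held a match on the gene's own strand. The match nearest to the start lay 72 nt before it at HXT1, 73 nt at HXT4, 76 nt at HXT7, 79 nt at HXT3 and 84 nt at HXT2. Among the 3213 ORFs with at least 15 full molecules, 975, or 30.3%, had a match in the same window. A match is a description of the sequence and was not tested for binding.

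The library values that bear on these genes were as follows. The table held 6074514 molecules in 510263 isoforms, an isoform being 1 pair of start and end positions. SET2 had 0 molecules, the mating pheromone genes of MATa cells, MFA1 and MFA2, had 3737 and 4194, and the alpha-cell receptor gene STE3 had 0. Of the genes deleted or cut in BY4741, LEU2 and MET17 were at 0, URA3 had 5 molecules and HIS3, whose ends the strain retains, had 2088. The median molecule was 853 nt long, and molecules of at least 1800 nt made up 1.09% of the total, so the full-length transcripts described here lie in the thin upper tail of the measured lengths.

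The 7 genes had 2035 molecules on their own strand in 508 isoforms, 0.0335% of the total. HXT3 led with 1077 molecules, followed by HXT2 with 515, HXT1 with 269, HXT4 with 103, HXT7 with 65, HXT5 with 6 and HXT6 with 0. These are counts of molecules and not of reads along a transcript, so they were compared without division by length, and the ORFs are alike in length, between 1626 and 1779 nt. A molecule counted as sense when it overlapped the coding span on its strand. With at least 50 sense molecules counted as well covered, 5 of the 7 genes passed, where 71.3% of all ORFs did.

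Among the low-affinity genes, HXT3 (YDR345C, chrIV:1162957-1164660, minus strand, 567 residues) had 1077 sense molecules, with an exact Poisson 95% interval of 1014 to 1143. It took 52.9% of the molecules of the 7 genes (Wilson 95% interval 50.75 to 55.1%) and ranked 642 of 6002 ORFs. HXT1 (YHR094C, chrVIII:290913-292625, minus strand, 570 residues) had 269 molecules, with an interval of 238 to 303, and ranked 1853. HXT3 was 4.0 times as abundant as HXT1, its closest relative in sequence among the 7, with 86.6% of aligned residues identical. Intervals on counts and shares cover counting error only, since no molecular identifier is mentioned and copies made by PCR are not independent molecules.

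Among the high-affinity genes, HXT2 (YMR011W, chrXIII:288079-289704, plus strand, 541 residues) had 515 molecules, with an interval of 471 to 561, and ranked 1130. HXT7 (YDR342C, chrIV:1154216-1155928, minus strand, 570 residues) had 65, with an interval of 50.2 to 82.8, and ranked 3915. HXT6 (YDR343C, chrIV:1159608-1161320, minus strand, 570 residues) had 0, as did 7.46% of all ORFs, with an interval of 0 to 3.69. This interval does not take in the repeated sequence of its ORF, which is described below. HXT2 is the most divergent of the 7 proteins, with 65.5 to 69.1% of aligned residues shared with the others. It nevertheless stood above the low-affinity gene HXT1 in level, by 1.91 times.

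Of the intermediate genes, HXT4 (YHR092C, chrVIII:287081-288811, minus strand, 576 residues) had 103 molecules, with an interval of 84.1 to 125. HXT5 (YHR096C, chrVIII:294669-296447, minus strand, 592 residues) had 6, with an interval of 2.20 to 13.1. HXT1, HXT4 and HXT5 lie close together on chromosome VIII, and HXT3, HXT6 and HXT7 on chromosome IV, so genes of the same cluster differed widely in counted molecules. On chromosome IV, the ORFs of HXT6 and HXT7 are mostly sequence that repeats in the genome. The part of this in their counts was not tested. In the order of the levels, neighbouring intervals did not overlap except for HXT5 and HXT6, whose upper bound was 3.69.

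Summed by affinity, the low-affinity genes had 1346 molecules and the high-affinity genes had 580. The ratio was 2.32, a log2 ratio of 1.21 with a 95% counting interval of 1.07 to 1.35. With molecules that cover the whole ORF alone, the low-affinity genes had 561 and the high-affinity genes 281, a log2 ratio of 1.00. The direction rests on HXT3: HXT1 alone had fewer molecules than the high-affinity genes together, a log2 ratio of -1.11, and HXT3 alone gave 0.89. The high-affinity sum rests on HXT2, since against HXT6 and HXT7 alone the log2 ratio was 4.37. In the coding spans of HXT6 and HXT7, only 4.22% of positions start a 30-nt sequence that occurs once in the genome. All 65 molecules of HXT7 covered the whole ORF, while the 1346 of the low-affinity genes include many that did not. The part of either in the value of 4.37 was not tested. Without values per replicate, whether the ratio exceeds the spread between cultures was not tested.

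**Figure D1:**
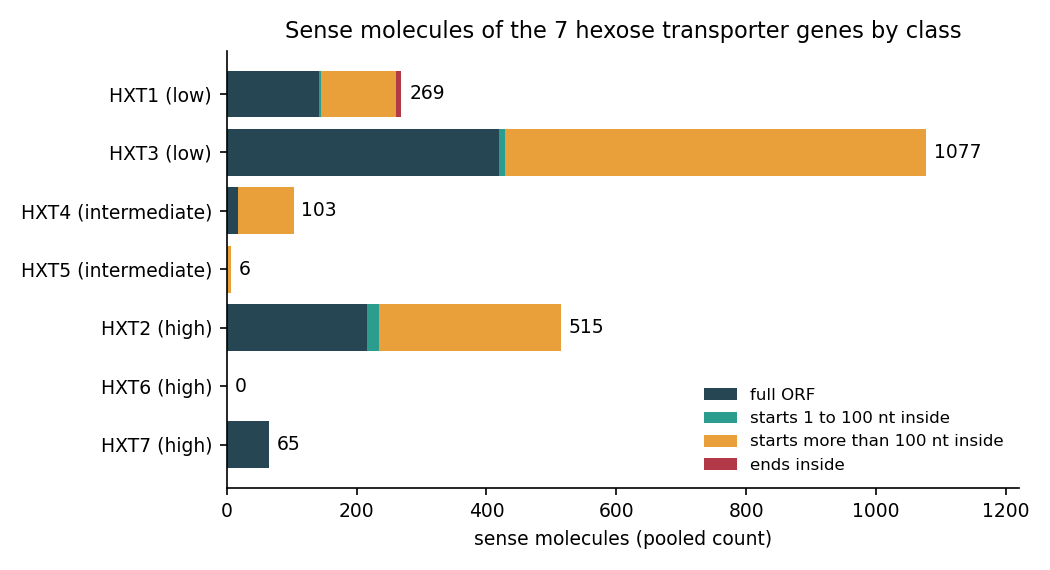
Sense molecules (pooled count) of each of the 7 genes, with each bar divided into molecules that cover the whole ORF (full), start 1 to 100 nt inside it, start more than 100 nt inside it (internal-start) or end inside it. HXT3 has the longest bar at 1077 and HXT6 has none; the bars of HXT1, HXT2, HXT3 and HXT4 are divided between full and internal-start molecules, while that of HXT7 is full-length throughout.

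The remaining hexose transporter genes had few molecules. Of 10 other hexose transporter genes (HXT8 to HXT11, HXT13 to HXT17 and GAL2, the galactose permease, as far as the annotation holds them), 4 had any sense molecule and 0 reached 50. Over all ORFs, 7.46% had no sense molecule and 71.3% had at least 50, as did 5 of the 7 genes described above. HXT8 had 32 molecules, GAL2 26, HXT10 17 and HXT14 3, together 78. Of these molecules only 1, at HXT14, covered the whole ORF. The other 6 genes were at 0, and between 3.34% and 46.9% of the positions in their coding spans start a 30-nt sequence that occurs once in the genome. Among 4 other sugar transporter genes, the maltose permease genes MAL31 and MAL11 had 149 and 55, while the near-identical MPH2 and MPH3 had 0. No molecule of MAL31 or MAL11 covered the whole ORF.

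Genes that sense glucose had modest numbers of overlapping molecules. All 16 genes of the sensing pathway had sense molecules, where 7.46% of all ORFs had none, and 10 of the 16 had at least 50, where 71.3% of all ORFs did. Their median was 70.5, against a median of 122 over all ORFs other than the 7 transporter genes. These 16 ORFs run from 1149 to 3513 nt, and the comparison was not matched for length. The sensor genes SNF3 and RGT2 had 43 and 36 molecules, the repressor gene RGT1 had 102, and its corepressor genes MTH1 and STD1 had 95 and 148. MIG2, a glucose-induced repressor gene, had 440 and its relative MIG1 had 7. Molecules covering the whole ORF numbered 0 at SNF3, 2 at RGT2, 4 at RGT1, 30 at MTH1 and 24 at STD1. They numbered 339 at MIG2 and 0 at MIG1, and RGT2 had 232 antisense molecules. The kinases that trap the imported sugar were all detected, HXK2 with 1194 molecules, GLK1 with 1030, HXK1 with 178 and EMI2 with 125. HXT3 at 1077 thus lay between the leading hexokinase and the glucokinase in number of molecules.

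The sequence 800 nt before each start codon was searched for known binding motifs on both strands. The Rgt1 motif CGGANNA occurred 8 times before HXT3 and 6 times before HXT1, 4 times before HXT5, 3 times before HXT4 and HXT2, 2 times before HXT7 and once before HXT6. Of 5997 such windows in the genome, 58.3% held at least 1 match, 7.02% at least 3, 0.183% at least 6 and 0.0167% at least 8. The Mig1 core, taken as GCGGGG or CCGGGG and also GTGGGG or CTGGGG, occurred 4 times before HXT2 and HXT4, 3 times before HXT6, 2 times before HXT1, HXT3 and HXT7, and once before HXT5. At least 1 match stood in 35.8% of windows and at least 3 in 1.78%. The stress element AGGGG, read by Msn2 and Msn4, occurred 4 times before HXT6 and HXT7 and 0 times before HXT2, with at least 3 matches in 4.57% of windows. CTTCC, the core of the site of the glycolytic activator Gcr1, occurred 1 or 2 times before every member and in 82.0% of windows. The AGGGG motif can overlap the Mig1 core, and neither was tested for binding.

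Each sense molecule was then placed against its ORF. A full molecule covered the ORF from start to stop codon, and an internal-start molecule started more than 100 nt inside and ended at or past the stop codon. The 7 genes had 860 full and 1132 internal-start molecules, so the internal-start share, over these classes together, was 56.8% (Wilson 95% interval 54.6 to 59.0%). A further 33 molecules started 1 to 100 nt inside, 10 ended inside the ORF and 0 had both ends inside. Of the 9 at HXT1 that ended inside, 7 started 641 nt before the start codon and covered the first 28 nt of the ORF. When only molecules over at least 50% of the coding span were kept, the internal-start share was 24.0%, since most internal-start molecules were short.

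How far full molecules shared a single start differed between the genes. At HXT3, 361 of 419 full molecules began at the same base, 32 nt before the start codon, which is 86.2%. The most used start took a smaller share of full molecules in 97.8% of the 3208 other ORFs with at least 15 full molecules, whose median was 36.45%. HXT2 began at a single base in 155 of 216 full molecules, or 71.8%, and HXT4 in 11 of 18, or 61.1%. HXT1 and HXT7 each divided their starts between a pair of leading sites. At HXT1 these were adjacent bases with 51 and 42 of 142 full molecules, and at HXT7 they lay 5 nt apart with 27 and 26 of 65. Their leading starts, with 35.9% and 41.5% of full molecules, lay near the median of the other ORFs, 48.3% of which had a smaller share than HXT1 and 60.9% a smaller one than HXT7.

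The sequence around these starts shows the initiator pair: the first base of the molecule (+1) is a purine, and the base before it (-1) a pyrimidine. Below, 30 nt around the leading starts are given 5′ to 3′ on the gene's strand, with positions -1 and +1 in capitals; +1 lies at chrVIII:292666 and chrVIII:292667 for HXT1, chrIV:1164692 for HXT3, chrVIII:288886 for HXT4, chrXIII:288041 for HXT2, and chrIV:1156019 and chrIV:1156014 for HXT7.
HXT1, first: caccttaaaatctaTAaagatatcataatc
HXT1, second: ccaccttaaaatctATaaagatatcataat
HXT3: ataaataatagaatCAcaaacaaaatttac
HXT4: tgagtaatagaaacCAtaaagaaaagatat
HXT2: ttagattataagaaCAacaaattaaattac
HXT7, first: ctattgtaaaataaTAaaacatcaagaaca
HXT7, second: gtaaaataataaaaCAtcaagaacaaacaa

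All of these starts have the pair except the second of HXT1. Over all full molecules, the pair stood at the start of 95.8% at HXT2 (92.3 to 97.8%), 91.6% at HXT3 (88.6 to 93.9%), 86.2% at HXT7 (75.7 to 92.5%), 83.3% at HXT4 (60.8 to 94.2%) and 65.5% at HXT1 (57.4 to 72.8%). Counted by site instead of by molecule, the pair stood at 9 of 12 sites at HXT2, 4 of 11 at HXT3, 3 of 6 at HXT7, 2 of 4 at HXT4 and 8 of 12 at HXT1, so the high shares of HXT3, HXT7 and HXT4 by molecule come from their leading sites.

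**Figure D2:**
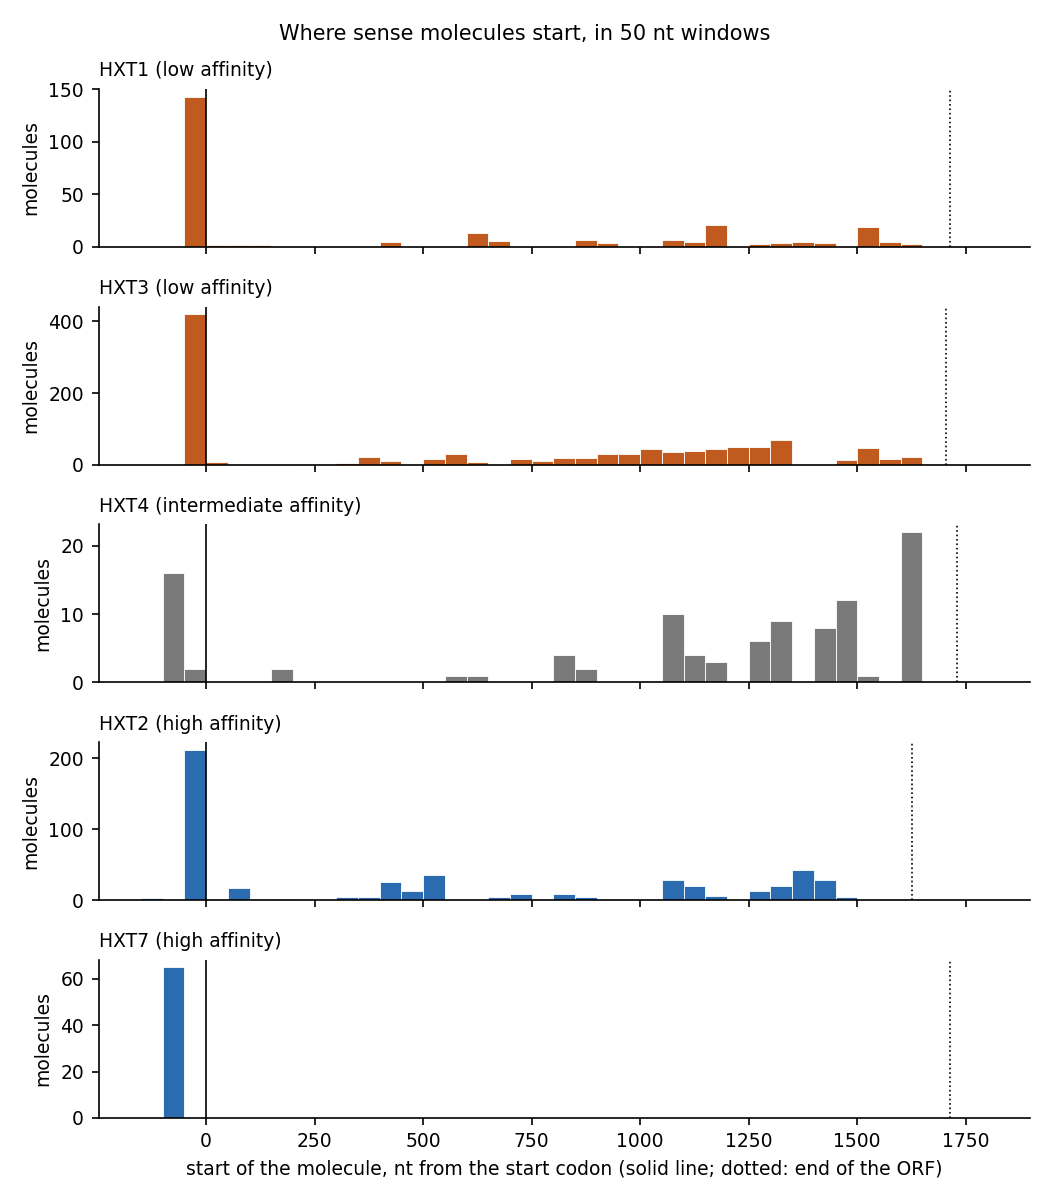
Number of sense molecules by the position of their start, in 50 nt windows counted from the start codon (solid line) to past the end of the ORF (dotted line), for the 5 genes with at least 50 sense molecules, each on its own scale. Most starts before the start codon fall in 1 or 2 windows at each gene (8 molecules of HXT1 that start farther upstream are outside the range shown), starts inside the ORF are scattered at HXT1, HXT2, HXT3 and HXT4, and the 65 molecules of HXT7 all start upstream.

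The leader, from the start of the molecule to the start codon, had a median of 91 nt at HXT7 (range 86 to 94), 75 nt at HXT4 (9 to 77), 41 nt at HXT1 (8 to 44), 38 nt at HXT2 (3 to 112) and 32 nt at HXT3 (1 to 47). The median of the other ORFs' medians was 41 nt, and 83.2% of them had a shorter leader than HXT7 and 36.1% a shorter one than HXT3. At HXT7, starts fewer than 85 nt before the start codon would have no 30-nt sequence that occurs once in the genome. The part of this in its leader range, and in its place among the other ORFs, was not tested. No full molecule of these genes had an ATG in its leader. The tail, from the stop codon to the end of the molecule, had a median of 142 nt at HXT7 (140 to 164), 141 nt at HXT3 (54 to 182), 115 nt at HXT2 (80 to 162), 106 nt at HXT1 (73 to 129) and 58 nt at HXT4 (56 to 138), where the other ORFs' median was 117 nt. The most used end of full molecules at HXT4 lay at 127 nt, with 7 of 18.

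**Figure D3:**
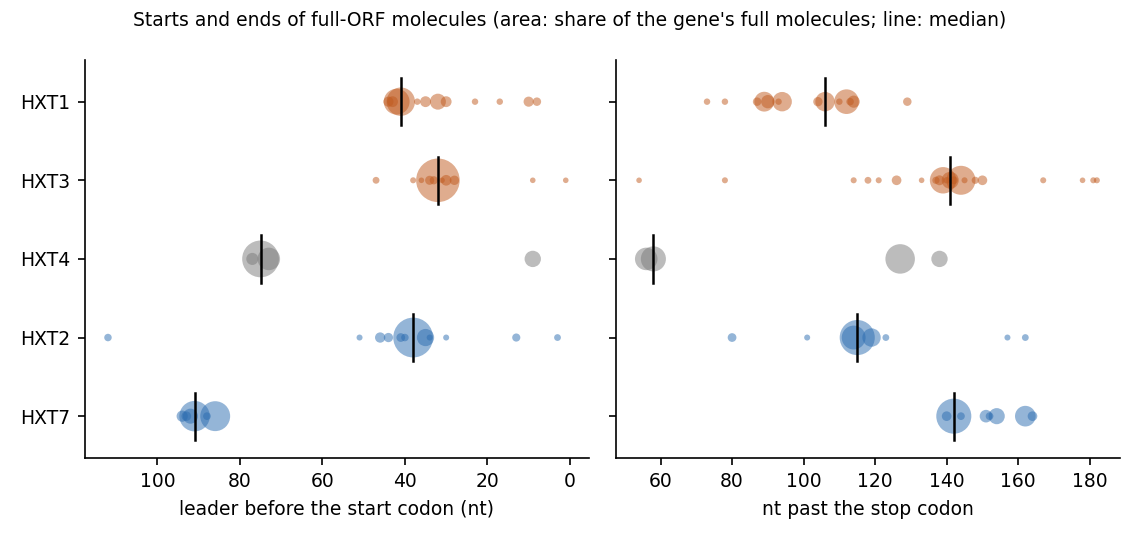
Leader length (left, nt before the start codon) and tail length (right, nt past the stop codon) of the full molecules of 5 genes; each circle is 1 site, its area the share of the gene's full molecules, and the line marks the median. HXT7 has medians of 91 and 142 nt, with leaders of 86 to 94 nt that lie apart from those of HXT1 and HXT3, and the tails of HXT4 fall at both ends of their range of 56 to 138 nt. Starts of HXT7 fewer than 85 nt before the start codon would lie in sequence that repeats in the genome.

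Ends differed between the genes in the sequence that follows them. An end was called A-rich when at least 6 of the next 10 nt in the genome are A, a context in which an oligo-dT primer can also pair inside a transcript. Ends of full molecules were A-rich in 85.4% of molecules at HXT3 (81.7 to 88.5%) and 69.0% at HXT1 (61.0 to 76.0%), and in 0 of 216 at HXT2, 0 of 65 at HXT7 and 0 of 18 at HXT4. Across the other 3208 ORFs the median was 5.41%, and 95.4% of them had a lower share than HXT3. The 3 most used ends of HXT3, with 383, 357 and 92 sense molecules, each have exactly 6 A, the threshold itself. At HXT1 the most used end has 8 A and those ranked 2 and 3 have 6. No other threshold was tried, so these shares hold for this threshold only. Ends of internal-start molecules were A-rich in 83.8% at HXT3, 65.8% at HXT1 and 0.357% at HXT2. The median tail of internal-start molecules was 94 nt at HXT1, against 106 nt for full ones, and 127 nt at HXT4, against 58 nt. The 18 full molecules of HXT4 ended at 56 nt (4), 58 nt (5), 127 nt (7) and 138 nt (2). Their median thus lies at the edge of a wide gap between ends, and 127 nt was also their most used end. The part of the A-rich context in the counts of HXT1 and HXT3 was not tested. Shown are the leading ends of a low- and of the high-affinity genes, 30 nt each, 5′ to 3′ on the gene's strand, with the last base of the molecule in capitals; it lies at chrIV:1162813 for HXT3, chrXIII:289819 for HXT2 and chrIV:1154074 for HXT7.
HXT3, 383 of 1077 sense molecules: ttggtacatgatatCaaacagaattttaac
HXT2, 228 of 515: gtttttatttgtacCactcatttatctaga
HXT7, 36 of 65: tacagtttaattttCaagtttttgatcatt

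The most counted isoform of HXT3 ran from 1164692 to 1162813, 1880 nt long, with 129 molecules, which is 12% of the gene's sense molecules. That of HXT2 ran from 288041 to 289819 over 1779 nt with 99 molecules, or 19.2%. HXT1 was spread more evenly, with its leading isoform at 17 molecules, or 6.32%. At HXT4 the most counted isoform, with 17 molecules, began 1606 nt inside the ORF and was 252 nt long, while its leading full isoform had 7. At HXT5, which had no full molecule, the leading isoform began 902 nt inside and had 4 of the 6 molecules.

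The internal-start share differed between the genes. It was 100% at HXT5 (6 of 6 molecules, Wilson 95% interval 61.0 to 100%), 82.5% at HXT4 (74.1 to 88.65%), 60.7% at HXT3 (57.7 to 63.6%), 56.5% at HXT2 (52.1 to 60.75%), 44.5% at HXT1 (38.6 to 50.7%) and 0% at HXT7 (0 to 5.58%). The intervals of HXT3 and HXT2 overlap, as do those of HXT4 and HXT5, and the others in this order do not. The order depends on how molecules are counted. With each isoform counted once, the share was 84.9% at HXT3 (79.9 to 88.8%), 81.8% at HXT4 (65.6 to 91.4%), 79.3% at HXT2 (71.1 to 85.7%) and 54.5% at HXT1 (43.5 to 65.2%). With molecules over at least 50% of the coding span it was 31.0% at HXT2 (26.1 to 36.3%), 30.8% at HXT4 (16.5 to 49.99%), 24.9% at HXT3 (21.5 to 28.7%) and 16.0% at HXT1 (11.2 to 22.25%). HXT7 was at 0% and HXT1 the lowest of the others with a share under both. Most of the HXT7 ORF is sequence that repeats in the genome, as described below. In this table the share climbs with ORF length, so each gene was set beside ORFs within 10% of its length that had at least 50 sense molecules. Their median share was 82.5% for the 429 ORFs like HXT1 in length, 81.7% for those like HXT3, 76.6% for HXT2 and 82.8% for HXT4. HXT1, HXT2 and HXT3 thus had more of their molecules at full length than the middle ORF of their size, and HXT4 lay at that middle. Among 204 well-covered other ORFs of 1626 to 1779 nt, 12.7% had a lower share than HXT1, 23% than HXT2, 26.5% than HXT3 and 52.9% than HXT4. Pooled over their molecules, the 319 other ORFs of this length range gave 50.6%, below the 56.8% of the 7 genes, so the contrast holds for the middle ORF and not for the pooled molecules.

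**Figure D4:**
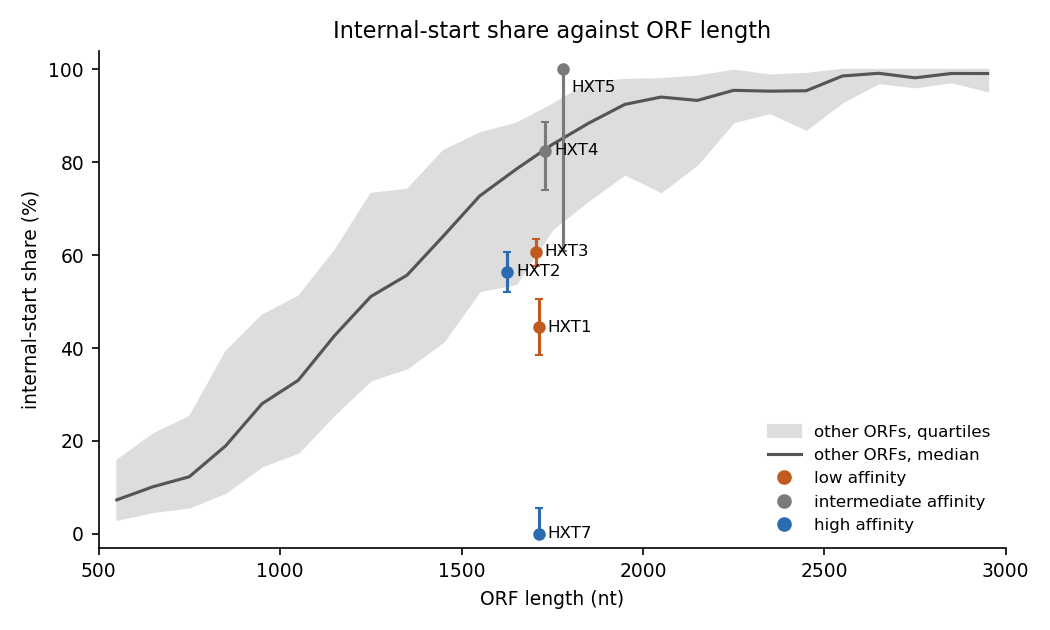
Internal-start share (%) against ORF length (nt): the line is the median and the band the quartiles of the other ORFs with at least 50 sense molecules in each 100 nt bin of length, and the points are the 6 hexose transporter genes with sense molecules, with Wilson 95% intervals. HXT1, HXT2 and HXT3 lie under the line at 44.5, 56.5 and 60.7%, HXT4 lies on it at 82.5%, HXT7 lies at 0%, and HXT5, at 100%, rests on 6 molecules.

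Beside single ORFs of like length and level, the members fell on different sides. Taking the 3 ORFs nearest in level to each, those of HXT3 were SRP68, DPS1 and RSC8 with shares of 62.7, 31.8 and 36.0%, beside 60.7% at HXT3. Those of HXT2, MUP1, ALD6 and ATP2, had 81.4, 24.3 and 67.5%, beside 56.5%. Those of HXT1, IMD3, YDR061W and RQT4, had 37.7, 86.1 and 99.6%, beside 44.5%. Those of HXT4, RAD30, YML096W and CDC55, had 98.9, 96 and 72.8%, beside 82.5%. Those of HXT7, CLN2, HEL1 and ALG6, had 100, 98.4 and 87.5%, beside 0%. At HXT7, 94.4% of positions more than 100 nt inside the ORF start a 30-nt sequence that repeats in the genome. Its 65 molecules were all full, while CLN2, HEL1 and ALG6 had 0, 1 and 8 full molecules. The match in level thus sets unlike kinds of molecule side by side.

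Starts inside the ORFs lacked what marked the upstream starts. In the 5 genes with internal starts, 326 distinct internal sites carried 1132 molecules, and the initiator pair stood at the start of 21.3% of these molecules (19.0 to 23.8%). Full molecules of the same genes had it in 87.9% (85.5 to 90.01%). Of all positions more than 100 nt inside these 5 ORFs, 23.9% have the pair, so its share among internal starts differed little from that of the underlying sequence. The highest internal site of HXT3, chrIV:1164068 at 592 nt inside, had 23 of 647 internal-start molecules, or 3.56%, and no initiator pair. The highest of HXT1, chrVIII:291446 at 1179 nt inside, had 11 molecules and the pair, and the next in-frame ATG after it encodes codon 397 of 570. That of HXT4, chrVIII:287205, had 17 of 85 molecules, or 20%. The 30 nt around these sites are given with positions -1 and +1 in capitals, for comparison with the upstream starts.
HXT3, internal: ctcctaaggaaatgAGaggtactttagtct
HXT1, internal: tgtttgatgtggggTGctgtcggtatggtc
HXT4, internal: acaccttatgggaaGAaggtgttttgccat

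Internal starts favoured the later parts of the ORFs. With each ORF divided into 5 equal bins from start to stop codon, the 5 genes together had 0.795, 17.4, 15.8, 41.3 and 24.6% of their internal-start molecules in successive bins, where the first bin is narrowed by the 100 nt rule. HXT3 had 325 molecules, or 50.2%, in the bin before the last, and HXT4 had 50.6% in the last. HXT2 had 29.3% in the second bin, 25% in the fourth and 35.4% in the last. At HXT3 the 30 nt windows that begin 1350, 1380, 1410 and 1440 nt inside hold no sequence that occurs once in the genome. They had 0, 0, 0 and 4 starts, and the part of this gap in the bins of HXT3 and of the 5 genes together was not tested. The median internal-start molecule was 722 nt long at HXT3, 671 nt at HXT2, 624 nt at HXT1 and 452 nt at HXT4, against 1877, 1779, 1854 and 1864 nt for the full molecules of these genes in the same order. The part of molecule length in the internal-start share was not tested beyond the comparison with ORFs of like length.

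HXT6 and HXT7 differ by 3 of 1713 nt in their ORFs, an identity of 99.8%. Counted from 1 at the A of the start codon, with the base of HXT6 first, these are T1632C, G1666A and T1677C, of which G1666A alone changes a residue, A556T. The identity goes on into the flanks: of the 90 nt before the start codon 88 are the same, and of the 90 nt after the stop codon 84. Further out, from 91 to 180 nt, 37 and 35 of 90 are the same. The 30 nt around the leading start of HXT7 hold 8 differences, in capitals below, and span chrIV:1156005-1156034 at HXT7 and chrIV:1161397-1161426 at HXT6, on the minus strand. Most of these differences lie upstream of that start, so molecules that begin there do not hold them. The difference nearest the start codon lies 85 nt before it.
HXT7: CtAtTGtAAaataataaaaCaTcaagaaca
HXT6: TtCtGTtTTaataataaaaAaAcaagaaca

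The 65 sense molecules of HXT7 all started 86 to 94 nt before the start codon, from 6 sites, and all ended 140 to 164 nt past the stop codon, at 8 sites. Every start at least 85 nt before either start codon and every end at least 56 nt past either stop codon has a 30-nt sequence that occurs once in the genome, so these 65 molecules have ends that distinguish the genes. On that count HXT7 held 100% of the molecules of the pair (94.4 to 100%). No molecule of HXT6 was listed in the same positions, where its sequence is as distinct as that of HXT7. The region between the genes held 0 molecules on either strand.

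Within the ORFs the genes cannot be told apart over most of their length: 4.22% of positions in each coding span start a 30-nt sequence that occurs once in the genome, and 4.93% with 50 nt. The first such position more than 100 nt inside lies at 1602 nt, leaving the last 111 nt. In that last stretch the internal-start molecules numbered 26 at HXT3, 5 at HXT4, 3 at HXT1, 3 at HXT2, and 0 at HXT5, HXT6 and HXT7. Before it, the 30 nt at an internal start do not tell HXT6 from HXT7, although the end of the same molecule can. Whether reads that could be placed at several sites were kept is not given in the sources used here.

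The table itself holds few molecules at repeated sequence. Positions more than 100 nt inside ORFs carried 1.71 internal-start molecules per 100 positions where the 30-nt sequence repeats in the genome and 8.49 where it occurs once. At HXT3, where 24.5% of such positions repeat, the values were 16.8 and 47.98 per 100, and at HXT1, where 10.3% repeat, 1.81 and 7.68. HXT2 has 7 repeated positions, 0.459% of the total, with 2 molecules, which is 28.6 per 100 against 18.3 where the sequence occurs once. Of 196 ORFs with under 10% of positions at sequence that occurs once, 175 had no sense molecule. Of the 10 among them of 1500 to 2000 nt, 9 had none and HXT7 was the other. Pooled over all 196 ORFs, there were 38639 full and 1239 internal-start molecules, an internal-start share of 3.11%, not matched for length. The part of repeated sequence in the levels of HXT6 and HXT7, and in the 0% internal-start share of HXT7, was not tested.

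With molecules that cover the whole ORF, for which the ends decide the assignment, HXT3 exceeded HXT7 by 6.45 times, with 419 and 65 molecules. With all sense molecules the ratio was 16.6, since HXT7 had no internal-start molecules.

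**Figure D5:**
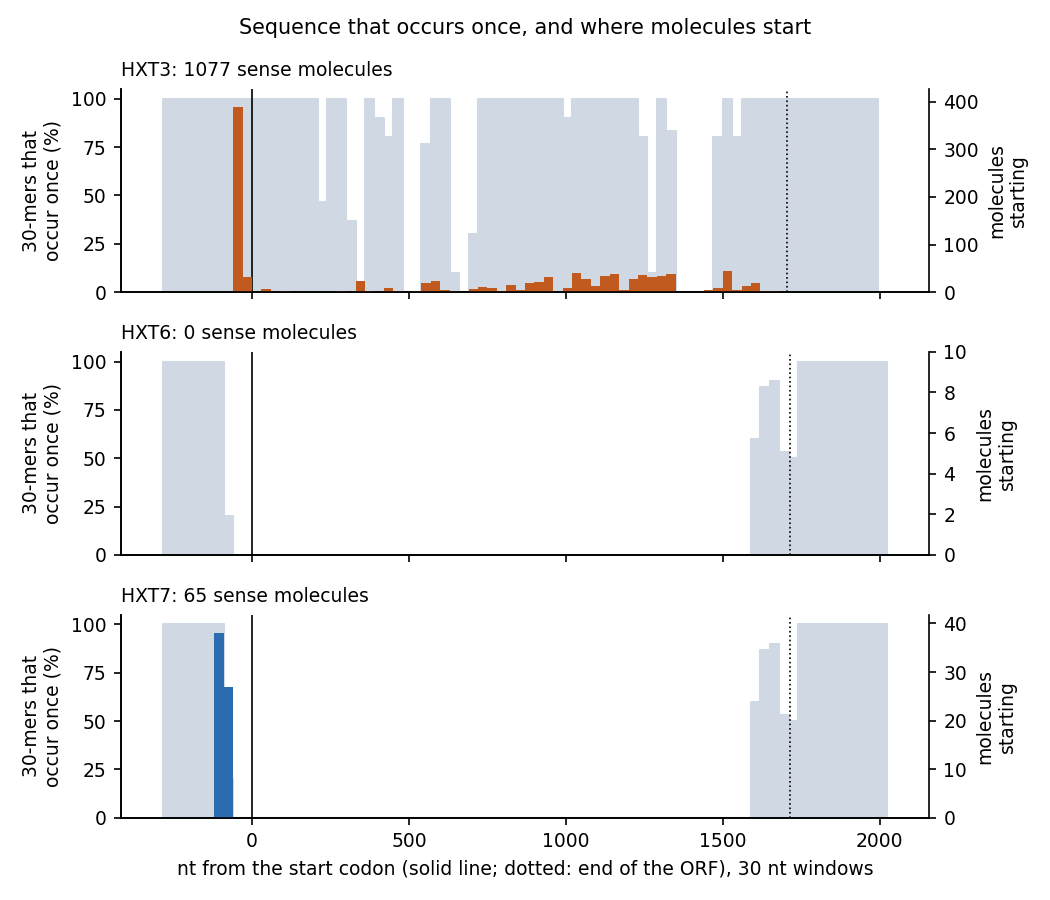
Share of 30-nt sequences that occur once in the genome (grey, left axis, %) and number of molecules starting (coloured, right axis, each on its own scale) in 30 nt windows from the start codon (solid line) to past the end of the ORF (dotted line) for HXT3, HXT6 and HXT7. HXT6 and HXT7 are at 0% over most of the ORF and reach 100% in the outer flanks, where the 65 molecules of HXT7 start, while HXT3 has gaps of repeated sequence inside its ORF.

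Antisense molecules over the 7 genes numbered 57 in 16 isoforms, 2.72% of sense plus antisense (2.11 to 3.51%), against 7.28% pooled over the other ORFs. This share depends on the many sense molecules of HXT3 and was 5.24% without that gene (4.03 to 6.79%). At least 1 antisense molecule was found at 5 of the 7 genes, where 75% of all ORFs had one. HXT5 was the single member with more antisense than sense molecules, 13 against 6, a state shared by 13.5% of all ORFs. HXT2 had 21, HXT4 16, HXT3 4, HXT7 3, and HXT1 and HXT6 had 0, where the median of the other ORFs was 7. As a share, this was 68.4% at HXT5 (46.0 to 84.6%), 13.4% at HXT4 (8.45 to 20.7%), 4.41% at HXT7 (1.51 to 12.2%), 3.92% at HXT2 (2.58 to 5.915%), 0.370% at HXT3 (0.144 to 0.948%) and 0% at HXT1 (0 to 1.41%). The share was lowest at HXT1 and HXT3 and highest at HXT5, the member with the fewest sense molecules above 0.

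The antisense molecules had shapes of their own. At HXT5, 11 of 13 ran from 295849 to 296594, starting 598 nt inside the ORF at an initiator pair and ending 147 nt upstream of the start codon. At HXT2 all 21 crossed the start codon and ended 51 to 102 nt upstream of it, over the leading sense start 38 nt upstream. The most counted, with 7 molecules, ran from 288314 to 288028. Most of the 21 had A-rich ends, in isoforms ending at 288028 (7, 5 and 4 molecules) and 288003 (2). Only the HXT2 isoform with 5 molecules started at an initiator pair. At HXT4 the leading isoforms lay near the end of the gene (286769 to 287093, 6 molecules) and in its middle (287432 to 288064, 6 molecules). In all, 34 of 57 antisense molecules ran past the start codon of a member, 32 started at an initiator pair, 20 had A-rich ends and 0 overlapped an ORF on their own strand. With only molecules over at least 50% of the coding span, the antisense share was 0.682%.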

How the data were processed

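TIF-Seq was run on 2 biological replicate libraries of 1 strain. Per the labels' protocols, cDNA made from RNA with a cap and a poly(A) tail was circularised and fragmented, and the joined ends were sequenced. The submitters' processing notes name CASAVA, Novoalign 2.07.10 and the R64 build. The deposited table gives 1 whole-number count per start, end and strand, pooled by the authors over both libraries; filters, duplicate removal and the treatment of repeated sequence are not given in the sources used here. Columns that belong to no sample numbered 0. The count was used unscaled.

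The build was checked on the data: the initiator pair stood at 73.35% of start sites with at least 30 molecules, and at no more than 28.1% when positions were moved by up to 20 nt. Isoforms were classed against ORFs from the RefSeq annotation of R64 with Python 3.11.15, pandas 2.3.3 and numpy 2.4.6, by code tested on simulated data. Shares carry Wilson and counts exact Poisson 95% intervals (scipy 1.17.1). The log2 ratio carries the interval of the matching share. Protein identities came from global alignments (BLOSUM62, Biopython 1.88) of translated ORFs. With 1 pooled column no test between groups was possible.

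All 7 members are reported, with every member of the sensing, kinase and transporter lists counted, and as comparison genes the 3 ORFs within 10% of a member's length that are nearest in level. The members and lists were chosen with earlier results of these data known. The alternatives were the distance that defines an internal start, the required overlap, isoform weighting, ends that occur once, the grouping by affinity and leaving out HXT3. The length of sequence asked to occur once (50 nt in place of 30 nt) was added after seeing the data.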

Additional observations from a re-analysis of the deposited data

Results flagged for a closer look

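Upstream of HXT3, in the 800 nt before its start codon, 5 molecules in 3 isoforms lay on the strand of the gene without reaching any ORF. They were flagged because they numbered more than 3, a fixed limit and not a test. The most counted, with 2 molecules, ran from chrIV:1164867 to chrIV:1164668 in R64 coordinates, across the leading start of HXT3 at 1164692. The same window held 1 such molecule at HXT5 and 0 at the other 5 genes.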

How the results depend on the processing

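Of 103 values recomputed under alternatives, 32 concern the comparisons, of which 20 stayed within the counting interval, 11 moved and 1 reversed. The other 71 concern single genes: 49 stayed, 22 moved and 0 reversed. The internal-start share of the 7 genes was 75.8% with each isoform counted once, 54.6% with isoforms of at least 2 molecules, 24.0% with an overlap of at least 50% of the coding span and 52.4% without HXT3. The antisense share was 0.682% with that overlap and 5.24% without HXT3. The log2 ratio of low- over high-affinity molecules was 0.90 with that overlap, 1.00 with full molecules, 0.97 with HXT4 and HXT5 added to the high-affinity genes, 4.37 with HXT6 and HXT7 as the high-affinity genes, 0.89 with HXT3 as the low-affinity gene and -1.11, the reversal, with HXT1. The overlap rule removes short molecules and the groupings change which genes are summed, by construction; for the others the cause was not tested. No paired analysis was possible because both libraries share 1 column, which also means that no replicate could be left out. Low counts limit what can be said of HXT5 (6 molecules) and HXT6 (0) most, then of the 18 full molecules of HXT4. For HXT6, and for HXT7 in the log2 ratio of 4.37, the part of repeated sequence was not tested.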
